A study of Mus musculus with 6 samples.

Results

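The genes of the ATF4 amino acid response and of the cytosolic tRNA synthetases were examined in cultured mouse fetal liver macrophages of wild-type mice and of mice deficient in Ahrr, which encodes the repressor of the aryl hydrocarbon receptor (AhR). The members were a fixed list of 43 gene symbols, matched exactly to the symbols of the deposited annotated table. Of these, 42 were among the 16111 genes of that table, and Vldlr, a lipoprotein receptor gene, had no row there and was not analysed. The list holds 13 regulators and effectors of ATF4 signalling, 8 enzymes of serine, glycine and folate metabolism, 3 enzymes of asparagine and proline synthesis and 19 cytosolic tRNA synthetase genes.

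RNA was sequenced from 6 cultures, 3 labelled wild type (WT) and 3 labelled Ahrr, which the growth protocol gives as AhRR-/-. Cells of both genotypes came from E13.5 fetal liver, are labelled C57BL/6 RCC with a mouse number for each library, and were kept for 5 weeks in RPMI with 10% serum, 1% L-glutamine, 1% of an antibiotic mixture and 2% GM-CSF, a growth factor for macrophages. Fresh medium was added every 2 to 4 days, and non-adherent cells were taken for RNA. The labels describe neither the targeted allele nor whether the 3 cultures of a genotype were seeded, fed or harvested together.

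ATF4 is a transcription factor whose translation rises when the initiation factor eIF2alpha is phosphorylated, for example by the kinase GCN2 (gene Eif2ak4) when amino acids are scarce. It then raises transcription of amino acid transporters, of enzymes that make asparagine, serine and proline, of folate enzymes that carry 1-carbon units, and of the synthetases that load amino acids onto transfer RNA. Among its other targets are Ddit3 (CHOP), Trib3 and Chac1, which act in the later, restraining or death-related arm of the response. Many targets carry a C/EBP-ATF response element (CARE) near the start of transcription.

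Because many of the members are listed as targets of ATF4, the promoters were searched for the core of that element, TGATGNAA, on both strands of the 250 bases before each RefSeq start (GRCm38.p6), for which 35 of the 43 members had an entry. Eif4ebp1, Cars, Hars, Lars, Nars, Rars, Vars and Wars had none. A match was present for 9 of the 35 members (25.7%), against 3.91% of all 27025 genes with an entry. It was present for 2.45% of the 8704 of these that were tested for expression, and for 3.45% of all 32851 promoters. Of the 9 members, Vldlr, Chac1 and Pycr1 were not tested for expression. The members were listed as genes of the ATF4 response, so this difference describes the list and not the expression data. Matches were found for 4 of 12 ATF4 regulators, 0 of 8 serine-glycine-folate genes, 2 of 3 asparagine and proline genes and 3 of 12 cytosolic synthetase genes. None of 14 mitochondrial synthetase genes held one in this window. Stretches that hold the match are shown for 7 of the 9 genes, each of the 7 with values given below. They run 5′ to 3′ on the strand of the gene, with the match in capitals (TTGCATCA and TTTCATCA are the core read on the other strand).
Asns (chr6:7693214-7693243, minus strand): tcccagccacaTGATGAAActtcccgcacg
Tars (chr15:11399659-11399684, minus strand): caggagtcccgTTGCATCAgctggtt
Gars (chr6:55037960-55037989, plus strand): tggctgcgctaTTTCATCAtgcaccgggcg
Atf3 (chr1:191183425-191183454, minus strand): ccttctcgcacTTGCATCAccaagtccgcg
Chac1 (chr2:119351038-119351067, plus strand): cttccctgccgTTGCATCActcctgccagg
Nupr1 (chr7:126625562-126625591, minus strand): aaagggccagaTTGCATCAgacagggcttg
Pycr1 (chr11:120643833-120643862, minus strand): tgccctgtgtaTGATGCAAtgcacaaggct
The shorter core GCGTG of the AhR binding element, searched in the same way, was present for 22 of the 35 members (62.9%) and for 50.9% of the tested genes, so it did not set the members far apart. A match describes letters in a window and not binding.

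Libraries held 3556106 to 41668336 counts, with Ahrr-deficient replicate 1 the shallowest and Ahrr-deficient replicate 2 the deepest. Levels are given as counts per 1000000 counts (CPM), scaled by TMM factors of 0.904 to 1.04. Ahrr itself was at 4.597, 4.74 and 5.21 CPM in the wild-type libraries and at 2.23, 2.47 and 1.18 CPM in the Ahrr-deficient libraries. Its reads were thus fewer but not absent there, and which part of the gene was targeted is not stated in the labels. All 10 listed macrophage markers were present, with a sum, mostly Lyz2, of 24803 to 27225 CPM in wild-type libraries and of 23331, 15337 and 17275 CPM in Ahrr-deficient replicates 1, 2 and 3. Among them Itgax was higher (log2 fold change 1.70, edgeR adjusted p 6.96e-04), Cd14 (-1.66, edgeR adjusted p 0.00329) and Csf1r (-0.65, edgeR adjusted p 0.0304) were lower, and 7 did not pass. The listed markers of erythroid, hepatocyte, neutrophil, mast, megakaryocyte, dendritic, stromal and lymphoid cells summed to at most 6.49 CPM in any library for each list, and no marker of mast cells, stroma or lymphocytes had a row in the table. In bulk RNA, fewer cells of a kind and less RNA per cell cannot be told apart.

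Of the 42 members with a row, 40 were tested, and all 40 exceeded the filter level of 1.17 CPM in each of the 6 libraries. Of these 40, 15 were higher and 1 was lower in Ahrr-deficient cells at an adjusted p under 0.05 in edgeR. By the same rule 19.6% of all 11408 tested genes were called in either direction, 9.62% as higher and 9.95% as lower. The median log2 fold change was 0.47 over the 40 members and 0.0076 over all tested genes, and 36 members had a positive value.

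The 3 Ahrr-deficient cultures were not alike in these genes. For 34 of the 40 members (85.0%, against 30.0% of all tested genes) Ahrr-deficient replicates 2 and 3 both lay above every wild-type library. Ahrr-deficient replicate 1 lay within the wild-type range for 19 members (47.5%, against 24.1% of all tested genes), below it for 13 and above it for 8. The order replicate 2, then 3, then 1 held for 30 members (75.0%, against 23.5% of all tested genes). The 2 groups therefore did not overlap for only 10 of the 40 members, against 38.8% of all tested genes, and 8 of the 16 called members overlapped, against 83 of all 2232 called genes. Total counts moved with this order, since replicate 2 was the deepest and replicate 1 the shallowest library. After all libraries were thinned to the smallest total, 9 of the 40 members (22.5%) passed the threshold, all of them among the 16, against 11.6% of all 10363 genes tested there. The marker sum of macrophages was also nearest to wild type in replicate 1, and its part in the order of the libraries was not tested.

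Leaving out a single library changed the count of called members in every case. It was 34 without Ahrr-deficient replicate 1, with 32 higher and 2 lower, in a fit that called 32.6% of 11837 tested genes, 16.0% as higher. Without Ahrr-deficient replicate 2 or 3 it was 4 of 40 (10.0%), against 8.31% and 10.3% of all genes. Without wild-type replicates 1, 2 and 3 it was 2 of 41, 3 of 42 and 3 of 42, or 4.88%, 7.14% and 7.14%, against 6.07%, 8.15% and 9.35% of all genes. The share of members past the adjusted threshold was thus near that of all genes in these 5 fits, where calls were fewer over the whole table. At an unadjusted p under 0.05 in edgeR it was not. Without Ahrr-deficient replicate 2 there were 17 of 40 members, against 3102 of 11412 genes. Without wild-type replicate 2 there were 25 of 42, against 3318 of 11839. The median log2 fold change of the members ran from 0.25 to 0.51 over these 5 fits. Only Atf3 and Wars stayed past the threshold in all 6 of these fits, and Ddit3 did so in 5. Of these 6 fits, the other 13 called members kept the call only in that without Ahrr-deficient replicate 1. Over all 16 alternatives, which also changed the scaling, filter, depth, model or test, Atf3 and Wars kept the call in 16 and Ddit3 in 15. Iars kept it in 11, Asns, Aldh18a1 and Yars in 10, Phgdh and Tars in 9, Atf4 and Aars in 8, Trib3 in 6, Psph, Mthfd2 and Lars in 5 and Dars in 4. These counts include the fit with no filter, whose p-values did not follow the spread between libraries.

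**Figure D1:**
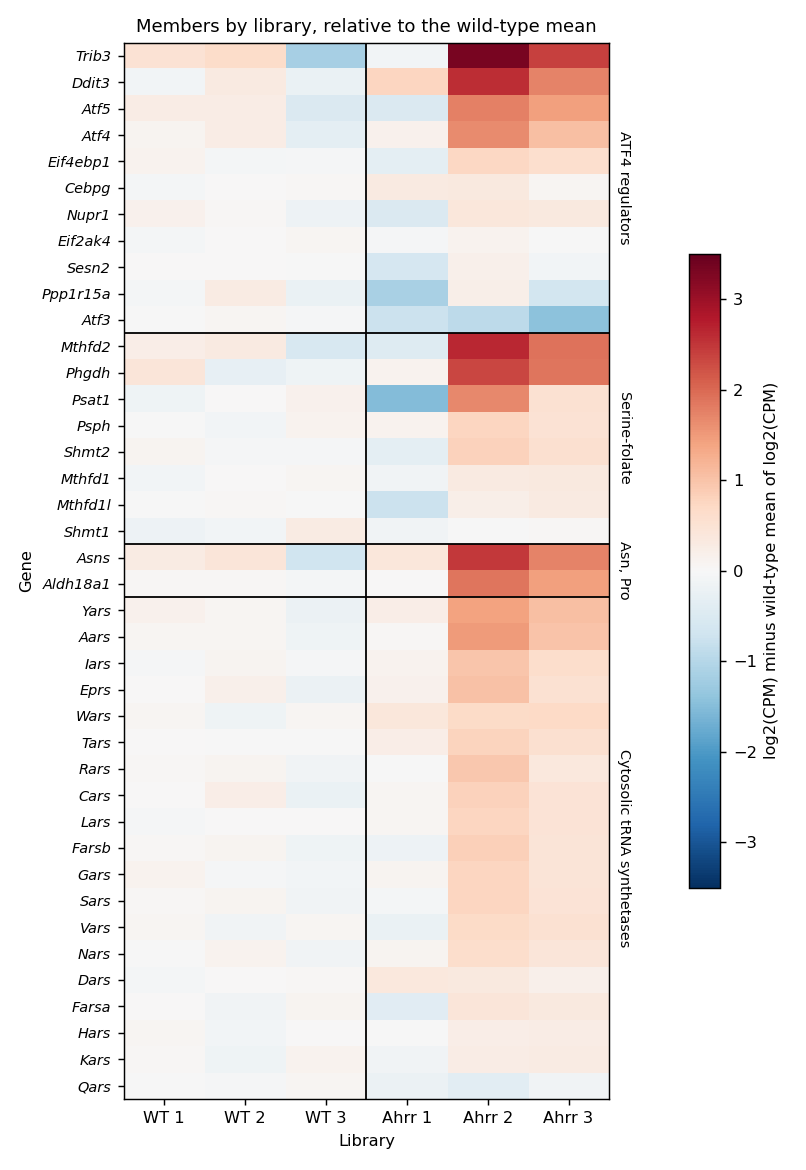
Level of each of the 40 tested members (rows, grouped by role) in each of the 6 libraries (columns), as log2 CPM minus the mean log2 CPM of the 3 wild-type libraries. Ahrr-deficient replicates 2 and 3 are above every wild-type library for 34 of the 40 members, while Ahrr-deficient replicate 1 is within the wild-type range for 19.

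Among the ATF4 regulators, 3 of 11 tested genes were higher (Atf4, Ddit3 and Trib3), 1 was lower (Atf3) and 7 did not pass the test. The share called was 36.4%, against 19.6% of all tested genes. The median log2 fold change of the 11 was 0.25.

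Atf4 (ENSMUSG00000042406.7, chromosome 15, 80255184 to 80257541, GRCm38), which encodes the factor itself, was at 111, 125 and 82.3 CPM in wild-type replicates 1, 2 and 3 and at 116, 332 and 217 CPM over Ahrr-deficient replicates 1, 2 and 3. Replicate 1 of the Ahrr-deficient group was thus inside the wild-type range, while the other two were above it. The mean rose from 106 ± 21.8 to 221 ± 108 CPM (SD, n = 3) with a log2 fold change of 1.08 (standard error 0.32, edgeR adjusted p 0.0424). Over the 6 fits that each left out 1 library the edgeR adjusted p of Atf4 ran from 0.00162, without Ahrr-deficient replicate 1, to 0.136, without wild-type replicate 3. The call of Atf4 was also lost with DESeq2 (adjusted p 0.0829), with limma-voom (adjusted p 0.0633) and with a minimum mean of 50 counts (edgeR adjusted p 0.0504).

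Ddit3 (ENSMUSG00000025408.15, chromosome 10, 127290774 to 127296288), the gene of the transcription factor CHOP, was at 12.1, 15.8 and 10.97 CPM in wild type, against 21.7, 77.2 and 42.4 CPM over Ahrr-deficient replicates 1, 2 and 3. Here the groups did not overlap, although the lowest Ahrr-deficient value was again that of replicate 1. The log2 fold change was 1.98 (standard error 0.38, edgeR adjusted p 0.00915). The call was lost only without wild-type replicate 1, at an edgeR adjusted p of 0.0522 and a log2 fold change of 1.90. Exons of Mars, the methionyl-tRNA synthetase gene, and of Gm4189 overlap Ddit3 on the opposite strand. Reads of these genes cannot be told apart if strand was not used in counting. A further annotated gene, also named Ddit3, overlaps its exons on the same strand, so reads may be shared there in either case.

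Trib3 (ENSMUSG00000032715.9, chromosome 2, 152337422 to 152344032) encodes a pseudokinase that restrains ATF4 and CHOP. Its level was 12.9, 14.4 and 4.11 CPM in wild-type replicates 1, 2 and 3 and 8.63, 91.7 and 48.1 CPM over Ahrr-deficient replicates 1, 2 and 3. This was the widest spread within a group among the tested members, with 10.6 times as much in Ahrr-deficient replicate 2 as in replicate 1. The log2 fold change of 2.33 (standard error 0.63, edgeR adjusted p 0.0338) lost its call in 5 of the 6 leave-one-out fits, with an edgeR adjusted p of up to 0.123 without Ahrr-deficient replicate 2.

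Atf3 (ENSMUSG00000026628.13), which encodes a stress-induced factor of the same family, moved the other way. It was at 187, 199.8 and 184 CPM in wild type, against 112, 101 and 70.1 CPM over Ahrr-deficient replicates 1, 2 and 3. Every Ahrr-deficient library was below every wild-type library. The mean fell from 190.4 ± 8.23 to 94.5 ± 21.7 CPM (SD, n = 3) with a log2 fold change of -1.02 (standard error 0.15, edgeR adjusted p 0.00409), and the edgeR adjusted p was at most 0.0230 when any 1 library was left out.

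The remaining regulators did not pass the test. Atf5, another transcription factor translated under eIF2alpha phosphorylation, was at 52.7, 52.1 and 30.9 CPM in wild type, against 30.9, 148 and 118 CPM in Ahrr-deficient cells (log2 fold change 1.18, standard error 0.44, edgeR adjusted p 0.0859). Without Ahrr-deficient replicate 1 its log2 fold change was 1.54 (edgeR adjusted p 9.51e-04), and exons of Il4i1 and Nup62 overlap it on the opposite strand. Eif2ak4, the gene of the kinase GCN2, was at 52.0, 54.2 and 56.5 CPM in wild type, against 53.2, 58.6 and 53.8 CPM in Ahrr-deficient cells, with a log2 fold change of 0.04 (standard error 0.09, edgeR adjusted p 0.804). Its level was thus nearly even over the 6 libraries. Cebpg, a C/EBP partner of ATF4, was at 102 to 109 CPM in wild type, against 112 to 134 CPM in Ahrr-deficient cells without overlap (log2 fold change 0.25, edgeR adjusted p 0.0821).

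The log2 fold changes of Eif4ebp1, an inhibitor of cap-dependent translation, Nupr1, a stress-response chromatin protein, Sesn2, an inhibitor of mTORC1, and Ppp1r15a, the inducible subunit of the eIF2alpha phosphatase (GADD34), were 0.44, 0.17, -0.10 and -0.32. Their edgeR adjusted p-values lay between 0.178 and 0.688, and for all 4 the lowest of the 6 libraries was Ahrr-deficient replicate 1. Chac1, a glutathione-degrading enzyme gene that is a late ATF4 target, was too low for the test. It showed 12, 4 and 1 counts over the wild-type cultures, and 1, 199 and 23 counts (0.278, 4.59 and 2.26 CPM) over Ahrr-deficient replicates 1, 2 and 3.

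**Figure D2:**
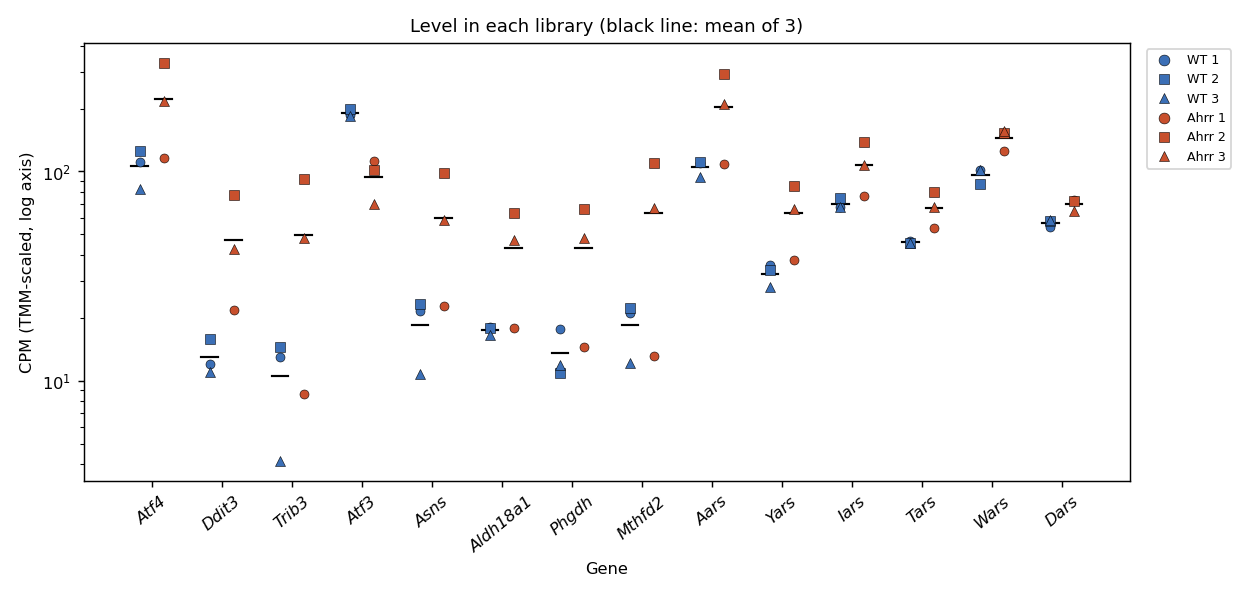
CPM (log axis) of 14 members in the 3 wild-type (blue) and 3 Ahrr-deficient (red) libraries, with the replicate given by the symbol and the group mean by the black line. For Atf4, Trib3, Asns, Aldh18a1, Phgdh, Mthfd2 and Aars the value of Ahrr-deficient replicate 1 lies among the wild-type values, while for Atf3 and Wars the groups are apart.

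Asparagine and proline synthesis followed the same order of libraries. Both tested genes were higher, and the third, Pycr1, was too low for the test. Asns (ENSMUSG00000029752.12, chromosome 6, 7675169 to 7693254), which encodes asparagine synthetase and carries the CARE core shown above, was at 21.5, 23.3 and 10.7 CPM in wild type, against 22.8, 97.95 and 58.6 CPM over Ahrr-deficient replicates 1, 2 and 3. Replicate 1 again lay inside the wild-type range. The log2 fold change was 1.76 (standard error 0.44, edgeR adjusted p 0.0245), with an edgeR adjusted p of 0.0854 without Ahrr-deficient replicate 2 and 0.00137 without replicate 1.

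Aldh18a1, whose product makes the first intermediate of proline synthesis, differed little within wild type, at 18.1, 17.9 and 16.6 CPM. Its Ahrr-deficient values were 17.8, 63.6 and 47.2 CPM, with a log2 fold change of 1.38 (standard error 0.34, edgeR adjusted p 0.0226, and 0.0910 without wild-type replicate 1). Pycr1, the last step of proline synthesis in mitochondria, had 10, 1 and 3 counts in wild type and 1, 60 and 12 counts over Ahrr-deficient replicates 1, 2 and 3. The count of 1 in the shallowest library leaves its level there uncertain.

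Among the serine-glycine-folate enzymes, 3 of 8 were higher (37.5%, against 9.62% of all tested genes), 0 were lower and 5 did not pass the test. The median log2 fold change of the 8 was 0.52. The 3 were Phgdh and Psph, the first and last steps of serine synthesis, and Mthfd2, a mitochondrial folate enzyme. In all 3 the groups overlapped, and all 3 lost the call in 5 of the 6 leave-one-out fits.

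Phgdh (ENSMUSG00000053398.11, chromosome 3, 98313170 to 98339990) was at 17.7, 10.9 and 11.9 CPM in wild-type and at 14.5, 66.4 and 48.2 CPM over Ahrr-deficient replicates 1, 2 and 3. Its mean rose from 13.49 ± 3.65 to 43.02 ± 26.3 CPM (SD, n = 3) with a log2 fold change of 1.71 (standard error 0.41, edgeR adjusted p 0.0220). The edgeR adjusted p was 0.0849 without Ahrr-deficient replicate 2. Mthfd2 was at 21.1, 22.1 and 12.1 CPM in wild type, against 13.1, 109.8 and 66.8 CPM in Ahrr-deficient cells (log2 fold change 1.86, standard error 0.54, edgeR adjusted p 0.0420, and 0.148 without Ahrr-deficient replicate 2). Both genes therefore reached several times the wild-type level in replicates 2 and 3 and not in replicate 1.

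Psph changed less, from 7.90 to 9.19 CPM in wild type to 9.19, 14.4 and 11.98 CPM over Ahrr-deficient replicates 1, 2 and 3 (log2 fold change 0.55, standard error 0.17, edgeR adjusted p 0.0486, and 0.236 without Ahrr-deficient replicate 2). Its call was close to the threshold, and an exon of Cct6a overlaps it on the opposite strand. Psat1, the aminotransferase between Phgdh and Psph, was at 9.24, 10.5 and 11.4 CPM in wild type, against 3.62, 33.0 and 15.03 CPM in Ahrr-deficient cells, with 13 counts in replicate 1. Its log2 fold change of 1.00 (standard error 0.48) did not pass, at an edgeR adjusted p of 0.172, and was 0.09 without Ahrr-deficient replicate 2 and 1.30 (edgeR adjusted p 0.0101) without replicate 1.

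The other folate enzymes did not pass the test. Shmt2, the mitochondrial serine hydroxymethyltransferase, showed a log2 fold change of 0.48 at an edgeR adjusted p of 0.155, Mthfd1l, which releases formate from mitochondria, 0.11 (edgeR adjusted p 0.746), and the cytosolic genes Mthfd1 and Shmt1 0.24 (edgeR adjusted p 0.212) and 0.01 (edgeR adjusted p 0.989). Folate enzymes also serve DNA synthesis, and 3 of 8 listed proliferation genes were higher in Ahrr-deficient cells, against 9.62% of all tested genes. The summed level of the 8 was 137 to 190.1 CPM in wild-type and 180, 249 and 285 CPM over Ahrr-deficient replicates 1, 2 and 3. The part of proliferation in the level of the folate enzymes was not tested.

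Of the 19 cytosolic tRNA synthetase genes, 7 were higher, 0 were lower and 12 did not pass the test, while 18 had a positive log2 fold change. The share called as higher was 36.8%, against 9.62% of all tested genes, of which 5811 of 11408 had a positive value. The median of the 19 was 0.47, and the largest value, that of Yars, was 1.00. Fold changes were thus smaller than for Asns, Phgdh, Mthfd2 or Trib3. The 7 were Yars, Aars, Iars, Wars, Tars, Lars and Dars, which load tyrosine, alanine, isoleucine, tryptophan, threonine, leucine and aspartate.

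Aars (ENSMUSG00000031960.14, chromosome 8, 111033144 to 111057664) was at 110.2, 111 and 94.2 CPM in wild type, against 109, 293 and 210.3 CPM over Ahrr-deficient replicates 1, 2 and 3. It was the only one of the 7 whose groups overlapped. Its exons overlap those of Exosc6 on the same strand and Gm24103 on the opposite strand, so its reads may not all be its own. The log2 fold change was 0.98 (standard error 0.28, edgeR adjusted p 0.0403, and 0.125 without Ahrr-deficient replicate 2). Yars was at 35.7, 33.9 and 28.0 CPM in wild type, against 37.9, 85.2 and 66.5 CPM in Ahrr-deficient cells, with a log2 fold change of 1.00 (standard error 0.24, edgeR adjusted p 0.0214, and 0.0797 without wild-type replicate 3). In Yars, Ahrr-deficient replicate 1 was just above the highest wild-type library, and C77080 overlaps it on the opposite strand.

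Wars (ENSMUSG00000021266.16), the tryptophanyl-tRNA synthetase gene, which is also known as an interferon-induced gene, differed from this order. It was at 101, 87.2 and 101 CPM in wild type, against 126, 152 and 156 CPM over Ahrr-deficient replicates 1, 2 and 3, so that all 3 Ahrr-deficient cultures were clearly above wild type. The mean rose from 96.6 ± 8.12 to 145 ± 16.6 CPM (SD, n = 3) with a log2 fold change of 0.59 (standard error 0.10, edgeR adjusted p 0.00721). The edgeR adjusted p was at most 0.0397 in the leave-one-out fits.

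Dars was at 54.3, 57.8 and 58.8 CPM in wild type, against 72.95, 71.9 and 64.6 CPM in Ahrr-deficient cells, and was the only called member with its highest value in Ahrr-deficient replicate 1. Its log2 fold change was 0.30 (standard error 0.09, edgeR adjusted p 0.0422, and 0.1997 without wild-type replicate 1), and the call of Dars was lost in 12 of the 16 alternatives, among them upper-quartile factors, no filter, GC offsets and DESeq2. Tars, which carries a CARE core close to its start, was at 46.7, 45.3 and 45.5 CPM in wild type, against 53.5, 79.3 and 67.7 CPM in Ahrr-deficient cells (log2 fold change 0.57, standard error 0.13, edgeR adjusted p 0.0193, and 0.0811 without wild-type replicate 1). The groups were apart in both genes.

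Iars and Lars, which load 2 branched-chain amino acids, had log2 fold changes of 0.65 (standard error 0.18, edgeR adjusted p 0.0345) and 0.48 (standard error 0.14, edgeR adjusted p 0.0456). Iars was at 67.6 to 74.4 CPM in wild type, against 76.3, 138 and 108 CPM in Ahrr-deficient cells, and Lars at 63.1 to 66.0 CPM and at 68.5, 109 and 90.6 CPM. Replicate 1 exceeded the highest wild-type library by little in both. Without wild-type replicate 1 the edgeR adjusted p was 0.130 for Iars and 0.166 for Lars.

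The 12 synthetase genes that did not pass had log2 fold changes between -0.23 and 0.61, and 8 of them had an unadjusted p under 0.05. Of all 19 synthetase genes 15 had such a p in edgeR, against 4087 of all 11408 tested genes. Eprs, the fused glutamyl-prolyl enzyme gene (0.61, edgeR adjusted p 0.0592), Gars (0.46, edgeR adjusted p 0.0597) and Nars (0.40, edgeR adjusted p 0.0618) came closest to the threshold. The only negative value was that of Qars, the glutaminyl-tRNA synthetase gene, at 136, 132 and 143 CPM in wild type, against 120, 106 and 126 CPM in Ahrr-deficient cells (log2 fold change -0.23, standard error 0.09, edgeR adjusted p 0.0952). Its groups did not overlap. Without Ahrr-deficient replicate 1, 16 of the 19 passed as higher and Qars passed as lower (edgeR adjusted p 0.0451), and Hars and Kars were the exceptions at edgeR adjusted p-values of 0.0711 and 0.0556.

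Per kilobase of annotated exon, levels in wild type ran from 5.47 CPM per kilobase for Yars and 5.99 for Cars to 34.4 for Nars and 37.2 for Gars. Yars, which had the largest fold change, was the lowest of the 19. Aars was at 11.3 CPM per kilobase, and at 105 CPM before division by length. The length joins the exons of all annotated transcripts and was 9.28 kilobases for Aars. Places on this scale thus depend on the annotation and not only on abundance.

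**Figure D3:**
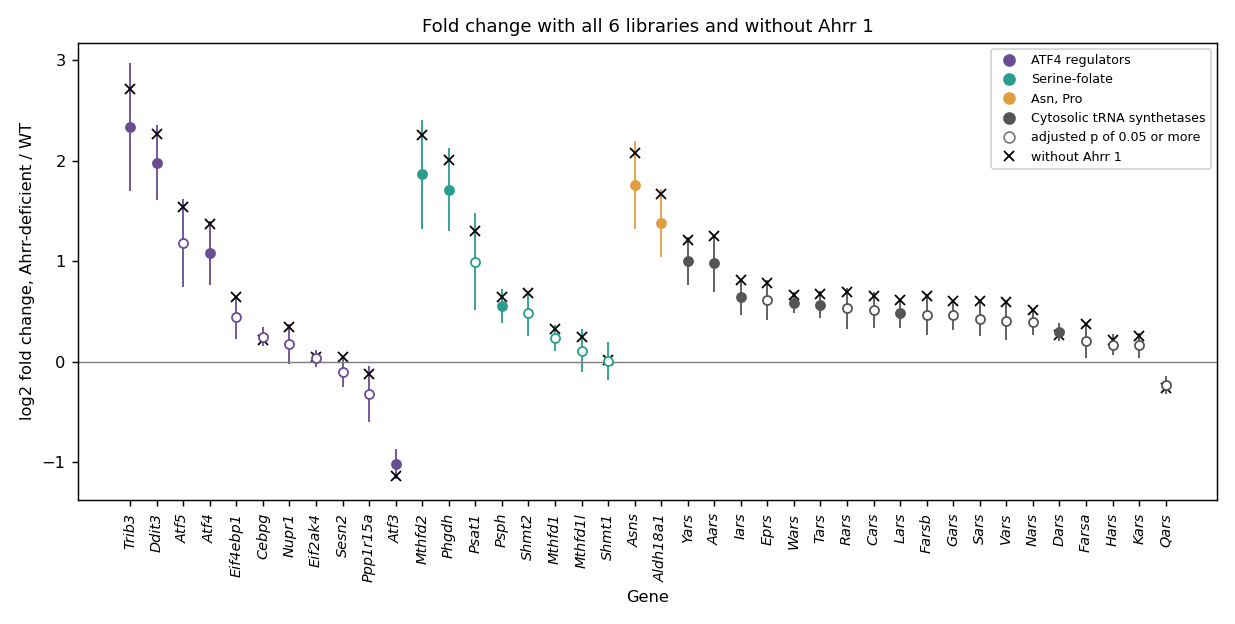
Log2 fold change of Ahrr-deficient over wild-type cells for the 40 tested members (circles, with bars of 1 SE), filled where the edgeR adjusted p was under 0.05, and the value in the fit without Ahrr-deficient replicate 1 (crosses). Trib3, at 2.33, is the highest and Atf3, at -1.02, the lowest, and most crosses of the positive members lie above their circles.

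Mitochondrial tRNA synthetases, which are encoded by separate nuclear genes, did not show this larger share of higher genes. Of 17 tested genes, 1 was higher, the methionyl enzyme gene Mars2 (11.5 ± 0.544 against 16.7 ± 2.27 CPM, SD, n = 3, log2 fold change 0.57, edgeR adjusted p 0.0194), 0 were lower and 16 did not pass. The share called was 5.88%, against 19.6% of all tested genes, and the median log2 fold change of the 17 was 0.04. The order replicate 2, then 3, then 1 of the Ahrr-deficient libraries held for 9 of the 17 (52.9%, against 23.5% of all tested genes). Ahrr-deficient replicates 2 and 3 were both above every wild-type library for 4 of the 17 (23.5%, against 30.0% of all tested genes). In Ahrr-deficient replicates 1, 2 and 3 the median deviation from the wild-type mean was -0.17, 0.04 and -0.01 on the log2 scale for the mitochondrial genes, and 0.06, 0.74 and 0.47 for the cytosolic ones. The difference between the lists was not tested.

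**Figure D4:**
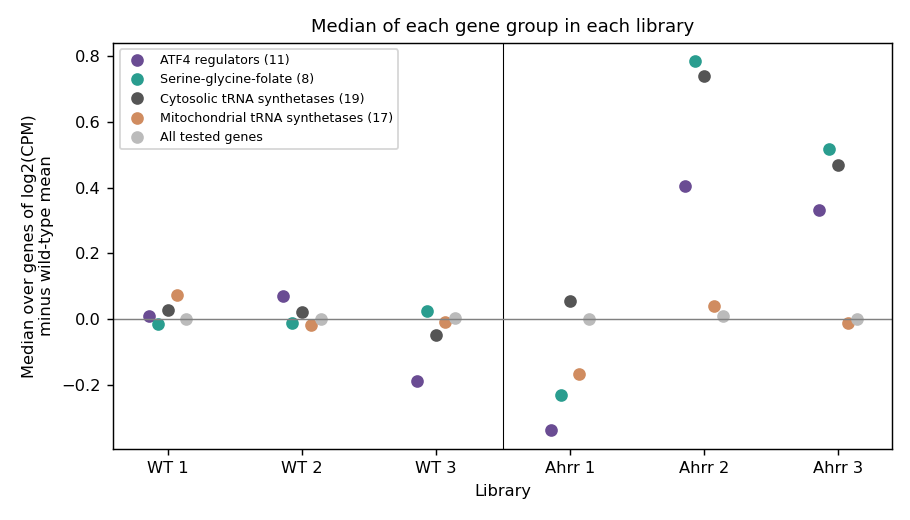
Median over the genes of each list of log2 CPM minus the wild-type mean of log2 CPM, for each of the 6 libraries. Cytosolic synthetases, at 0.74 and 0.47, and serine-glycine-folate enzymes, at 0.78 and 0.52, stand above 0 in Ahrr-deficient replicates 2 and 3, while the mitochondrial synthetases and all tested genes stay near 0.

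Of 5 further synthetase-related genes, too few to weigh a share against the 9.62% of all tested genes called as higher, 2 were higher. They were Eef1e1, a scaffold protein of the multisynthetase complex (log2 fold change 0.95, edgeR adjusted p 0.0347, groups overlapping), named after its value was seen, and Tarsl2, a second threonyl-tRNA synthetase gene (9.55 ± 0.544 against 14.9 ± 2.48 CPM, SD, n = 3, log2 fold change 0.57, edgeR adjusted p 0.0320). Mars, the cytosolic methionyl enzyme gene, which overlaps Ddit3, showed a log2 fold change of 0.47 at an edgeR adjusted p of 0.128.

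Among 33 further genes of the response, which included eIF2 and eIF2B subunits, other eIF2alpha kinases and amino acid transporters, 29 were tested, 10 were higher, 2 were lower and 17 did not pass. The share called was 41.4%, against 19.6% of all tested genes. The largest changes of the list were in transporters. Slc7a5, a carrier of large neutral amino acids, was at 18.9, 10.5 and 9.601 CPM in wild type, against 23.95, 172 and 111 CPM over Ahrr-deficient replicates 1, 2 and 3 (log2 fold change 2.95, standard error 0.57, edgeR adjusted p 0.00979). Slc7a1, a carrier of cationic amino acids named after its values were seen, was at 27.6, 30.9 and 19.6 CPM in wild type, against 29.8, 137.6 and 84.9 CPM in Ahrr-deficient cells (log2 fold change 1.76, standard error 0.42, edgeR adjusted p 0.0219). Its groups overlapped, with Ahrr-deficient replicate 1 inside the wild-type range. Slc7a11, the cystine carrier, was at 16.2, 17.2 and 18.5 CPM in wild type, against 40.9, 64.7 and 28.4 CPM in Ahrr-deficient cells (log2 fold change 1.42, standard error 0.27, edgeR adjusted p 0.00915). All 3 Ahrr-deficient libraries were above wild type for Slc7a11, replicate 1 included. Stc2, a secreted glycoprotein gene, was low in all libraries and rose from 1.54 ± 0.51 to 3.60 ± 1.59 CPM (SD, n = 3, log2 fold change 1.34, edgeR adjusted p 0.0255). The 2 lower genes, named after their values were seen, were Jdp2 (log2 fold change -0.76, edgeR adjusted p 0.00576) and Ddit4 (-0.88, edgeR adjusted p 0.0228). Neither had overlapping groups.

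The genes that set the phosphorylation of eIF2alpha differed among themselves. Of the other kinase genes, named for their role, none passed. Log2 fold changes were 0.07 for Eif2ak1, 0.10 for Eif2ak2 and -0.46 for Eif2ak3, the gene of PERK (edgeR adjusted p 0.0552). The groups did not overlap for Eif2ak3. Without Ahrr-deficient replicate 1 its log2 fold change was -0.61 (edgeR adjusted p 0.00254), in a fit that called 32.6% of all tested genes. Chosen after their values were seen, Eif2s1, which encodes eIF2alpha, rose from 49.2 ± 2.22 to 74.5 ± 6.81 CPM (SD, n = 3, edgeR adjusted p 0.00479), and Ppp1r15b, the constitutive phosphatase subunit, rose from 192 ± 3.39 to 293 ± 37.3 CPM (SD, n = 3, edgeR adjusted p 0.00637). For both, all 3 Ahrr-deficient libraries were above all wild-type libraries.

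Of 25 further folate and glycine genes, 19 were tested, 2 were higher, 2 were lower and 15 did not pass, a share of 21.1% that is near that of all genes. Amt, a subunit of the glycine cleavage system, fell from 7.06 ± 0.455 to 3.57 ± 0.361 CPM (SD, n = 3, log2 fold change -1.03, edgeR adjusted p 0.00629). Mtrr, which reactivates methionine synthase, showed a log2 fold change of 0.72 at an edgeR adjusted p of 0.0286, and Dld, a dehydrogenase subunit shared by several mitochondrial complexes, one of 0.39 (edgeR adjusted p 0.0125).

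Of 15 further genes of proline, sulphur, glutamine and aspartate metabolism, 13 were tested, 3 were higher and 1 was lower. The share called was 30.8%, against 19.6% of all tested genes. Glul, glutamine synthetase, fell from 483 ± 35.3 to 237 ± 67.3 CPM (SD, n = 3, log2 fold change -1.04, edgeR adjusted p 0.00672). Its level was lower in all 3 Ahrr-deficient libraries than in any wild-type library. Mat2a, which makes S-adenosylmethionine, rose from 88.7 ± 2.72 to 138 ± 15.7 CPM (SD, n = 3, log2 fold change 0.64, edgeR adjusted p 0.00411).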

How the data were processed

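RNA of 6 macrophage cultures was measured by single 75 bp reads from libraries made from 100 ng of RNA, per the labels' protocols. The submitters' processing notes name CASAVA 1.8.2, fastp 0.20.0, STAR 2.7.10b, SAMtools 1.16.1, R 4.3.1, DESeq2 1.40.2 and the build mm10 (GRCm38); the counting program, its use of strand and the annotation release are not given in the sources used here. The authors deposited raw counts for 53465 features without identifiers, and a normalized signal (counts divided by 1 size factor per library) for 16111 genes with identifiers and at least 10 counts. Multiplying the deposited signal by recomputed median-of-ratios factors gave whole reads for 100% of values (tolerance 1e-06 reads) that matched the raw counts, so identifiers were joined to counts. Features without an identifier held 0.0232% to 0.0511% of counts. They entered the library totals and the fit with no filter, and no other test.

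The main test was edgeR's quasi-likelihood test (edgeR 4.0.16, R 4.3.3, TMM scaling, filterByExpr, genotype as the only term), two-sided, with Benjamini-Hochberg adjustment over 11408 genes and a threshold of 0.05. Standard errors came from the fold change and the F statistic; CPM are counts divided by the library total times its TMM factor. The biological coefficient of variation was 13.0%, and a floor of 3 counts was 0.072 to 0.844 CPM (counting error only). Chi-square values of 5.79 to 175 per degree of freedom showed no duplicated libraries. The labels give a mouse number per library, and nothing else says how cultures were kept apart, so p-values measure the spread between these libraries. Coordinates and exon lengths are from GENCODE mouse release 21 (16088 identifiers matched), and promoters from RefSeq. The test was run on simulated counts with seeded changes. Each gene was drawn apart there, so that run does not cover a shift shared by many genes in single libraries.

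Members and lists were chosen with earlier results of these data known. Members past the threshold and Atf4, Ddit3, Asns, Psat1, Phgdh and Eif2ak4 were to be given in full, and of each further list at most the 3 called genes with the largest fold change, no overlap and a mean of at least 50 counts. Alternatives were RLE and upper-quartile factors, no filter, a minimum mean of 50 counts, limma-voom (limma 3.58.1), DESeq2 1.42.0, the replicate number as a block, offsets for GC content (lowess, span 0.3) alone and with the block, counts thinned to the smallest total, and each library left out. Deviations of same-numbered libraries were only weakly correlated, which cannot show whether those libraries were handled together. Some results are not reported here.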

Additional observations from a re-analysis of the deposited data

How the results depend on the processing

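Of 640 recomputed fold changes of the 40 tested members under 16 alternatives, 476 kept direction and side of the threshold, 109 kept direction but lost the call, 38 gained a call and 17 changed sign. The cause of each change was not tested, except that fits leaving out a library hold fewer samples. The sign changes were of uncalled values near 0. Sesn2 went to 0.0635 with GC offsets and 0.021 with these and the replicate block, and ran from -0.2925 to 0.0474 with 1 library left out. Eif2ak4 went to -0.0459 after thinning and ran from -0.0222 to 0.0557 with 1 library left out, and Mthfd1l ran from -0.0287 to 0.245. Shmt1 was at -0.0268 with upper-quartile factors, -0.0103 with a minimum mean of 50 counts, -0.0363 with the replicate block, -0.001 with GC offsets, -0.0426 with both, -0.0078 with DESeq2 and -0.1331 after thinning, and ran from -0.123 to 0.1304 with 1 library left out.

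Against 2232 genes and 16 members, no filter gave 2859 of 24416 features (11.7%). These include features without an identifier, each with under 10 counts, so this share is not that of the 16111 genes. The same fit gave 29 of 42 members (7 regulators, 5 serine-glycine-folate enzymes, 14 synthetases), 15 of them among the 16. In this fit the edgeR adjusted p of Atf4 was 2.31e-22 at a log2 fold change of 1.09. That of Lars2, whose change rested on wild-type replicate 2, was 1.09e-149. Such values do not follow the spread between libraries, so calls of this fit do not show that a change held across libraries. Thinning gave 1198 genes and 9 members (1 serine-glycine-folate enzyme, 3 synthetases). A mean of at least 50 counts left 1 serine-glycine-folate enzyme. Limma-voom gave 2749 genes (24.1%) and 12 members, with 2 regulators. DESeq2 gave 1936 genes (16.1%) and 12 members, 7 of them among the 16, with 0 serine-glycine-folate and 0 asparagine and proline enzymes past the threshold, where 4 and 2 had an unadjusted p under 0.05. Deviations of same-numbered libraries correlated at -0.169, 0.071 and 0.129, and not every library correlated best with its own number. With 3 libraries in each group these values cannot show whether same-numbered libraries were handled together. The replicate block gave 1390 genes, 10 members (9 of them among the 16) and 0 serine-glycine-folate enzymes, with 3 at an unadjusted p under 0.05. The block with GC offsets gave 1275 genes and 1 serine-glycine-folate enzyme.

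With 1 library left out, counts ran from 694 to 3857 for all genes, 2 to 34 for members, 1 to 8 for regulators, 0 to 6 for serine-glycine-folate enzymes (at least 2 at an unadjusted p under 0.05 in edgeR), 0 to 3 for asparagine and proline enzymes (at least 2 likewise) and 1 to 17 for synthetases. The highest count of each was that without Ahrr-deficient replicate 1. Depth limits Chac1, Pycr1 and Psat1 most, with 1, 1 and 13 counts in the shallowest library.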

Other observations

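Lars2, a mitochondrial leucyl-tRNA synthetase gene, was measured at 87.3, 15059 and 179 CPM in wild-type replicates 1, 2 and 3 and at 276, 293 and 110.2 CPM in Ahrr-deficient replicates 1, 2 and 3. Its log2 fold change of -4.50 (standard error 1.65, edgeR adjusted p 0.0854) rested on wild-type replicate 2.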
